A study of Mus musculus with 6 samples.

Results

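Interferon-stimulated genes were followed through the cell types of the mouse retina in oxygen-induced retinopathy (OIR). The set held 40 of the 31053 genes in the deposited matrices, taken by symbol, and every symbol matched 1 row. It was divided into 29 genes that lean towards type I interferon and 11 that lean towards interferon gamma, although many members answer to both. Single-cell RNA was measured in 3 OIR samples, raised in 75% oxygen between P7 and P12 with 5 days of normal air after it, and in 3 control (Ctrl) samples kept in normal air throughout. All mice were taken at P17, each sample pooled retinas from 2 mice, and no strain, genotype or sex was named for them. The labels call the material retinal endothelial cells, but the sums held whole retina, with 194 of 38569 kept cells in the endothelial cluster. Of the kept cells, 25763 were Rod-like, 3485 Mueller-like and 244 Microglia-like. Clusters were named from markers and carry "-like", since no other measurement gives the type.

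Interferons are secreted proteins that warn neighbouring cells of infection or damage. Type I interferons bind a receptor made of Ifnar1 and Ifnar2, and the kinases Jak1 and Tyk2 then activate a complex, with Stat2 and Irf9 among its parts, that binds the interferon-stimulated response element (ISRE) of target genes. Interferon gamma, made mainly by lymphocytes, binds Ifngr1 and Ifngr2 and acts on a different element, the gamma-activated site (GAS). In the retina the Mueller cell is the main glial cell, spanning the whole thickness of the tissue, and microglia are its resident immune cells.

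Promoter sequences are shown here because the ISRE and the GAS are the elements through which interferons act on genes, and some of the members hold them. RefSeq promoter windows of 300 bases (250 before the start site and 50 after it, build GRCm38.p6) were found for 32 of the 40 members, in 37 windows. The ISRE core was searched as GAAANNGAAA and the GAS as TTCNNNGAA, on both strands. The ISRE core stood in 51.35% of the members' windows and in 3.443% of all 32851 windows. The GAS stood in 27.03% of the members' windows and in 8.298% of all windows. By gene, 18 of the 32 members held the ISRE core, 10 held the GAS and 5 held both, and in 2 of them (Bst2 and Ifitm3) the matches overlapped. By subset, the ISRE core stood in 52.0% of the windows of type I leaning members and 50% of those of interferon gamma leaning members, and the GAS in 24.0% and 33.33%, differences that were not tested. A match in these letters describes the sequence and does not show a bound site.

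Among the 11 members that passed the test in at least 1 cell type, 9 had a promoter entry and 3 of these held a motif. Their 120 bases from 140 to 21 before the start site are given 5′ to 3′ along the strand of the gene, in lower case, with capitals marking each ISRE core and GAS on either strand. Gbp7 and Gbp3, neighbouring guanylate-binding proteins, lie on chromosome 3, plus strand (chr3:142530196-142530315 and chr3:142559904-142560023), and Rsad2, the antiviral enzyme viperin, on chromosome 12, minus strand (chr12:26456473-26456592).
Gbp7: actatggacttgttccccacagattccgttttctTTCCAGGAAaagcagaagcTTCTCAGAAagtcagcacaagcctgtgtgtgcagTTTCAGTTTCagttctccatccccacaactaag
Gbp3: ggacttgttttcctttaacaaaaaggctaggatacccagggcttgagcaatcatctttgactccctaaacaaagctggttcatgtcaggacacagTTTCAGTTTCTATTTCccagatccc
Rsad2: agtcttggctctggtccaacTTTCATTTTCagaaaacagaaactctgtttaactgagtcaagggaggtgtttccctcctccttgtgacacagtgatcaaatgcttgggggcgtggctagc
Gbp7 holds 2 GAS matches and 1 ISRE core in this stretch, Gbp3 holds 2 ISRE cores that share bases, and Rsad2 holds 1 ISRE core.

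The files hold counts of unique molecular identifiers (UMIs), which were summed per sample and cell type and scaled by the total of each sum to CPM, so that sums of unequal depth can be set side by side. The 6 libraries held between 15788524 and 42606878 UMIs, and both replicate 1 libraries were deeper than the rest, with medians of 3958 and 4850 UMIs per kept cell against 1449.5 to 2354. Ctrl replicates 2 and 3 carried Xist RNA (1737 and 1957 CPM), the other 4 libraries carried Y-linked RNA, so that sex and group were nearly confounded. A fit with a term for sex therefore sets the OIR samples against Ctrl replicate 1 alone. Without Ctrl replicate 1, or with replicates 2 and 3 alone, sex and group cannot be told apart. None of these fits separates sex from the OIR effect with replicates. Pairs of libraries shared 3 to 17 cell barcodes among kept cells, of 5371 to 7470 cells in a library. Separate samples are pools of mice, so the p-values measure the spread between these pools.

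The members were not spread evenly over the retina. In the Ctrl group they summed to 2942 ± 158 CPM (SD, n = 3) in VEC-like cells, the vascular endothelium, to 2010.2 ± 607 CPM in Mural-like cells, to 2006 ± 1408 CPM in Microglia-like cells and to 1363 ± 199 CPM in Astrocyte-like cells. Mueller-like cells followed with 583 ± 78.7 CPM and RPE-like cells (pigment epithelium) with 396 ± 109 CPM. Every neuron was far lower, from 142 ± 4.46 CPM in Cone bipolar-like cells through 92.5 ± 36.4 CPM in Amacrine-like, 71.0 ± 7.71 CPM in Rod-like and 69.4 ± 24.9 CPM in Cone-like cells to 61.3 ± 4.74 CPM in Rod bipolar-like cells. Neighbours in this order lay within the larger SD of each pair among the Mural-like, Microglia-like and Astrocyte-like sums. The same held among the Amacrine-like, Rod-like, Cone-like and Rod bipolar-like sums. The order also rests on few cells in some types. Ctrl replicates 1, 2 and 3 held 145, 4 and 16 VEC-like, 63, 5 and 5 Mural-like, and 22, 2 and 1 Astrocyte-like cells. Without Ctrl replicate 2 the Microglia-like mean was 1194 CPM, under that of Astrocyte-like cells. These levels are a description, since the clusters were made from the same cells.

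**Figure D1:**
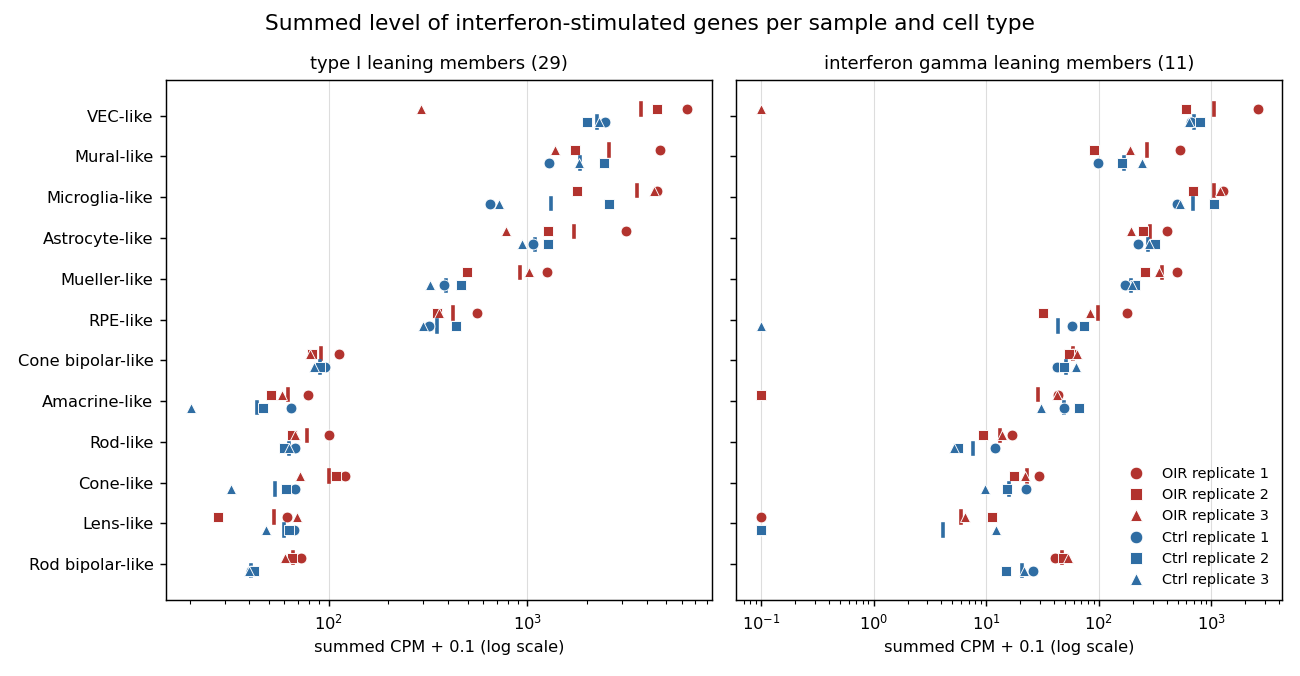
Summed CPM of the 29 type I leaning (left) and 11 interferon gamma leaning (right) members in each sample and named cell type, on log axes with 0.1 CPM added. Red points are OIR samples, blue points Ctrl samples, shapes are replicates and vertical bars are group means. The 3 OIR sums stand above the 3 Ctrl sums for both subsets in Mueller-like and Rod bipolar-like cells, and VEC-like OIR sums run from 292 to 6386 CPM for type I leaning members.

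In Mueller-like cells calls fell on several members of different roles. Of the 40 members, 30 passed the filter on low counts. Of these 30, 8 were called higher in the OIR group and 0 lower, and 29 had a positive log2 fold change. The filter asks for enough counts in as many samples as each group holds. A member high in the OIR group alone could therefore pass, so counts over tested members and their medians are descriptions. To be called, a gene needed an adjusted p below 0.05 in edgeR's quasi-likelihood test together with a log2 fold change of 0.25 or more in size, and 2.77% of all 11533 genes tested in these cells were called. The median log2 fold change of the 30 members was 1.04, against -0.01 for all genes tested. Every OIR sample lay above every Ctrl sample for 16 of the 30 members, which held for 14.0% of all genes tested. At an unadjusted p under 0.05 the members counted 19, all higher, where 15.0% of all genes passed in either direction.

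Of the 4 signal transducers and transcription factors of the set, Irf9 and Irf7 were called. Irf9, the DNA-binding part of the type I complex, had 38.3, 22.8 and 47.4 CPM in OIR replicates 1, 2 and 3 and 14.2, 14.7 and 10.9 CPM in Ctrl replicates 1, 2 and 3. The groups did not overlap, and the log2 fold change was 1.36 (SE 0.26, adjusted p = 0.0205, edgeR). Irf7, the factor that amplifies type I interferon production, had 42.0, 17.8 and 45.5 CPM in OIR and 4.62, 10.5 and 7.29 CPM in Ctrl samples (log2 fold change 2.29, adjusted p = 0.0443). Stat2, which joins Irf9 in that complex, overlapped between groups, since OIR replicate 2 held 10.9 CPM and Ctrl replicates 1 and 2 held 11.5 and 11.8 CPM, with a log2 fold change of 0.96 (adjusted p = 0.2298). Irf1, a direct target of interferon gamma, had a log2 fold change of 0.18 (adjusted p = 0.8347).

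The sensors and the ubiquitin-like system did not pass. Ddx58 (RIG-I) and Ifih1 (MDA5), which detect viral RNA, had log2 fold changes of 0.86 and 0.35, with adjusted p-values of 0.1119 and 0.4814. Isg15, which is coupled to other proteins like ubiquitin, had 50.5, 11.6 and 41.6 CPM in OIR and 4.09, 7.15 and 3.65 CPM in Ctrl samples. The groups did not overlap, but OIR replicate 2 was far under the other OIR samples, and the log2 fold change of 2.80 (SE 0.68) had an adjusted p of 0.1188. Usp18, the protease that removes Isg15 and damps the type I receptor, had a log2 fold change of 2.24 (adjusted p = 0.3467) and overlapping groups.

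Of the 9 antiviral effectors, 7 were tested and 1, Rsad2, was called. Rsad2, whose promoter is printed above, had 19.5, 5.32 and 11.4 CPM in OIR and 1.60, 1.26 and 0.61 CPM in Ctrl samples. All OIR samples were higher than all Ctrl samples, by a log2 fold change of 3.19 (SE 0.59, adjusted p = 0.0218). The Ifit genes, whose proteins bind viral RNA, spread more widely. Ifit1 had 85.1, 11.3 and 45.5 CPM in OIR and 1.24, 15.97 and 0 CPM in Ctrl samples, so that Ctrl replicate 2 exceeded OIR replicate 2 and the log2 fold change of 3.19 (SE 1.40) did not pass (adjusted p = 0.4151). Ifit3 and Ifit3b are near-identical copies that some reads may not tell apart. Their log2 fold changes were 1.36 and 1.00, and the part of such reads in these values was not tested. Oasl2, of the oligoadenylate synthetase family and among the 3 most abundant members here, had 94.9, 42.2 and 139 CPM in OIR and 16.9, 34.5 and 24.3 CPM in Ctrl samples. Its groups did not overlap, with a log2 fold change of 1.84 (SE 0.52, adjusted p = 0.1809). Samhd1, which degrades nucleotides, was the 1 tested member with a negative value (-0.23, adjusted p = 0.695).

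The membrane restriction factors overlapped between groups. Ifitm3, which blocks virus entry and was the most abundant member, had 233, 61.6 and 92.9 CPM in OIR and 87.6, 64.7 and 51.6 CPM in Ctrl samples. OIR replicate 1 stood far above the rest, OIR replicate 2 lay within the Ctrl range, and the log2 fold change was 0.88 (SE 0.61, adjusted p = 0.6152). Bst2 (tetherin) had a log2 fold change of 1.29 (adjusted p = 0.474).

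Among the interferon gamma leaning members, 8 of 11 were tested and 2 were called, Gbp3 and Psmb10. Gbp3, a GTPase that attacks membranes around microbes, had 19.8, 8.75 and 16.9 CPM in OIR and 3.73, 5.05 and 1.82 CPM in Ctrl samples. The groups did not overlap (log2 fold change 2.01, SE 0.39, adjusted p = 0.0195). Igtp, Irgm1 and Gbp7, of the same GTPase families, had log2 fold changes of 1.00, 1.08 and 0.63 without passing (adjusted p = 0.2406, 0.2533 and 0.0875). Gbp genes are close relatives, so some reads may not tell them apart, which was not tested.

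The immunoproteasome, a variant proteasome that cuts proteins for display to T cells, was tested for all 3 of its inducible subunits, with 1 call. Psmb10 had 117, 69.4 and 94.2 CPM in OIR and 34.3, 47.9 and 45.0 CPM in Ctrl samples. The lowest OIR sample stood above the highest Ctrl sample, with a log2 fold change of 1.11 (SE 0.22, adjusted p = 0.0263). Psmb8 and Psmb9 had log2 fold changes of 0.69 and 1.29 (adjusted p = 0.2443 and 0.2911).

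The remaining calls were Lgals3bp, a secreted scavenger-receptor protein (log2 fold change 1.52, adjusted p = 0.0350), and 2 members of varied function. Parp14, a mono-ADP-ribosyltransferase, had 27.6, 24.4 and 28.6 CPM in OIR and 14.2, 13.9 and 9.11 CPM in Ctrl samples. These were the tightest OIR values of the called members, with a log2 fold change of 1.00 (SE 0.20, adjusted p = 0.0214). Rtp4, a receptor-transporting protein induced by type I interferon, had 26.2, 11.3 and 31.5 CPM in OIR and 0.36, 3.36 and 1.22 CPM in Ctrl samples. It showed the largest log2 fold change of the 8, 4.05 (SE 0.70, adjusted p = 0.0281). A UMI of Rtp4 was found in 9.69% of OIR and 0.551% of Ctrl Mueller-like cells (medians of 6532 and 6801 UMIs per cell). In the shallower Rod-like cells (2237 and 1611 UMIs) the shares were 0.147% and 0.0156%. For Irf7 they were 15.6% and 3.85% of Mueller-like cells, and 4.93% and 2.46% of Rod-like cells. The part of free RNA in these values was not tested.

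Another 10 members fell below the filter in Mueller-like cells, with 3 to 152 UMIs each over the 6 samples, and are given as counts only. Iigp1, an immunity-related GTPase, had 44, 2 and 10 UMIs in OIR and 0 in every Ctrl sample. Set against 3 counts over the Ctrl group, the level pooled over the OIR samples was at least 12.8-fold higher. Without OIR replicate 1, which held most of these UMIs, the pooled level was at least 6.15-fold higher. These bounds cover counting error only and not the spread between samples, and OIR replicate 2 held 2 UMIs. Dhx58 had 38, 10 and 17 UMIs in OIR against 3, 3 and 2, and Trim30a had 58, 8 and 23 against 8, 4 and 1. Cxcl10, a chemokine for T cells, was uneven, with 131, 4 and 0 UMIs in OIR and 5, 3 and 0 in Ctrl samples. The others were Gbp2, Zbp1, Oas1a, Ifi44, Mx1 and Slfn2.

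**Figure D2:**
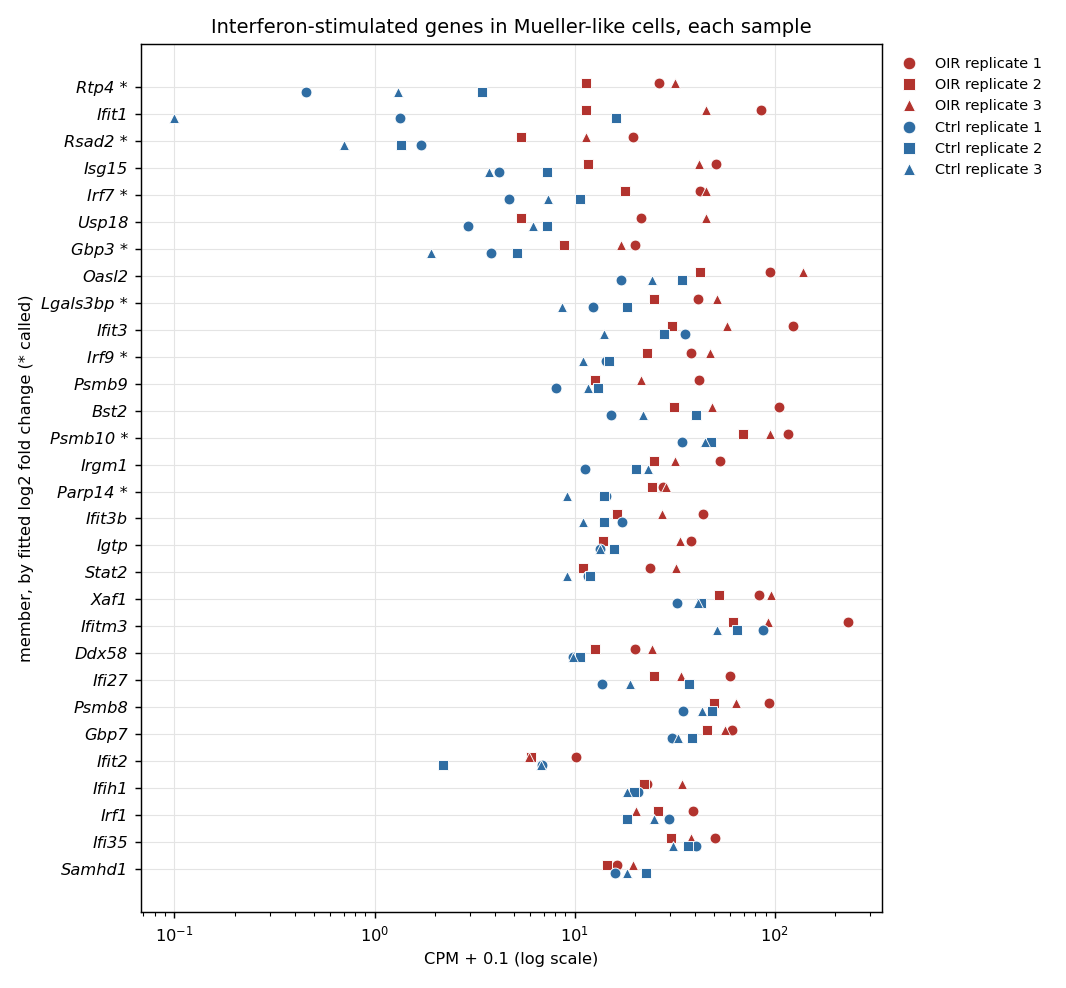
CPM (plus 0.1, log axis) of the 30 tested members in Mueller-like cells, 1 point per sample, ordered by fitted log2 fold change, with called members starred. Red OIR points lie right of blue Ctrl points for most members, and OIR replicate 2 (squares) is the lowest OIR point for most of those in the upper part of the plot.

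Both subsets stood higher in OIR Mueller-like cells. Type I leaning members summed to 1255, 497 and 1013 CPM in OIR and to 381, 461 and 326 CPM in Ctrl samples, a ratio of group means of 2.37. Interferon gamma leaning members summed to 498, 255 and 344 CPM in OIR and to 172, 211 and 198 CPM in Ctrl samples, a ratio of 1.89. In both sums OIR replicate 2 came closest to the Ctrl samples. The median log2 fold change was 1.15 over 22 tested type I leaning members, 6 of them called, and 1.04 over 8 tested interferon gamma leaning members, 2 of them called. The difference between the subsets was not tested, and no p is given for a sum over chosen genes.

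At 1000 UMIs per cell, cells in which at least 3 members were detected were a minority of Mueller-like cells. This share depends on the depth. Before thinning, the median cell held 9.0, 2.0 and 3.0 member UMIs in OIR and 2.0, 3.0 and 3.0 in Ctrl samples. After each cell was thinned to 1000 UMIs, which left out 24, 61 and 83 shallower OIR cells and 16, 19 and 19 Ctrl cells, at least 3 members were detected in 17.2%, 3.53% and 17.5% of OIR cells (157 of 913, 16 of 453 and 87 of 498). At least 1 member was detected in 66.8%, 45.7% and 61.0% of OIR and in 38.0%, 42.9% and 41.1% of Ctrl cells. The shares with at least 3 in Ctrl samples were 1.92%, 2.56% and 2.07% (17 of 885, 7 of 273 and 5 of 241). Exact binomial 95% intervals were 14.8% to 19.8%, 2.03% to 5.67% and 14.2% to 21.1% in OIR samples. OIR replicates 1 and 3 thus lay far above all Ctrl samples, while the interval of OIR replicate 2 overlapped those of the Ctrl samples, which reached up to 5.21%. In Rod-like cells the share was at most 0.109% in any sample. The tenth of Mueller-like cells richest in members held 42.4%, 44.8% and 47.5% of the members' UMIs in OIR and 35.6%, 40.5% and 28.7% in Ctrl samples.

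**Figure D3:**
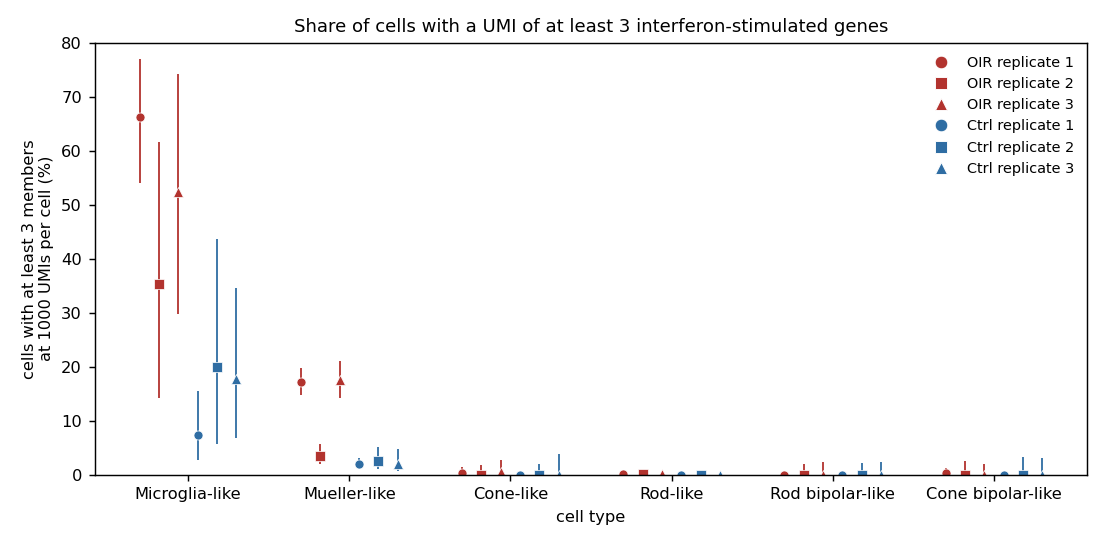
Share of cells in which at least 3 members had a UMI, with every cell thinned to 1000 UMIs, for 6 cell types and each sample. Points are samples and bars exact binomial 95% intervals, which cover counting error only. Microglia-like shares run from 35.3% to 66.2% in OIR and from 7.41% to 20% in Ctrl samples, and Mueller-like OIR replicate 2 lies with the Ctrl samples.

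Counts of calls in Mueller-like cells depended on single libraries. Without OIR replicate 1, OIR replicate 3 or Ctrl replicate 3 the count was 0, without Ctrl replicate 2 or Ctrl replicate 1 it was 2 or 3, and without OIR replicate 2 it was 20, although between 27 of 30 and 33 of 34 tested members had a positive value each time. With the replicate number as a block, 7 members were called, 5 of the 8 among them, where 514 of 11533 genes were. Rtp4, Lgals3bp and Irf7 were not called (adjusted p = 0.0546, 0.0932 and 0.1034, edgeR). With a term for sex, which leaves Ctrl replicate 1 as the only control of the same sex, Psmb10 and Rtp4 were called. That fit called 543 of 11533 genes. The Mueller-like sums joined a deeper cluster (665, 242 and 261 OIR and 675, 183 and 180 Ctrl cells) and a shallower one (272, 272 and 320 OIR and 226, 109 and 80 Ctrl cells). The deeper cluster alone gave 6 calls, all among the 8, at a median log2 fold change of 1.13, and the shallower one alone gave 4 calls of 14 tested members (Irf7 and Psmb10 of the 8, with Isg15 and Oasl2), with a median of 1.22. Microglia markers were no higher in the OIR sums, at 22.7 to 41.2 CPM against 26.1 to 46.7 CPM, and each of the 8 markers had a UMI. Astrocyte markers were higher, at 49.4 to 54.6 CPM against 17.01 to 31.1 CPM for all 4. VEC markers, at 1062, 1311 and 1128 CPM against 1041, 1038 and 916 CPM, and RPE markers, at 551, 668 and 620.2 CPM against 471, 437 and 455 CPM, were also higher in every OIR sum. The part of these in the result was not tested.

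Microglia-like cells had higher levels and fewer calls. Of the 40 members, 28 were tested, 3 were called higher in the OIR group and 0 lower. A positive log2 fold change was found for 27 of 28. Here too a member could pass the filter through the OIR group alone. In these cells 0.413% of 3393 tested genes were called. The median log2 fold change of the tested members was 1.32, against -0.01 for all genes, and 13 of 28 were higher at an unadjusted p under 0.05, where 9.52% of all genes passed in either direction. Every OIR sample lay above every Ctrl sample for 5 members, which held for 6.60% of all genes. The sums rested on 71, 17 and 21 OIR cells and 81, 20 and 34 Ctrl cells.

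The 3 calls were Slfn2, Xaf1 and Gbp7. Slfn2, of the Schlafen family that restrains immune cell growth, had 240.2, 244 and 257 CPM in OIR and 34.0, 119 and 42.2 CPM in Ctrl samples. The OIR samples were nearly equal and all above Ctrl replicate 2, the highest control (log2 fold change 2.18, SE 0.33, adjusted p = 0.0035, edgeR). Xaf1, a promoter of cell death, had 109, 83.3 and 113 CPM in OIR and 15.3, 28.0 and 36.9 CPM in Ctrl samples (log2 fold change 2.17, SE 0.37, adjusted p = 0.0077). Gbp7, whose promoter is printed above, had 90.9, 94.4 and 100.5 CPM in OIR and 22.1, 42.0 and 15.8 CPM in Ctrl samples. Its groups were well apart (log2 fold change 1.95, SE 0.36, adjusted p = 0.0141).

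The 3 most abundant members did not pass. Bst2 had 699, 189 and 611 CPM in OIR and 157, 266 and 179 CPM in Ctrl samples (log2 fold change 1.44, SE 0.46, adjusted p = 0.3044). Psmb8 had 409, 233 and 306 CPM in OIR and 180.3, 371 and 227 CPM in Ctrl samples (log2 fold change 0.42, SE 0.28, adjusted p = 0.7127). Ifitm3 had 636, 106 and 587 CPM in OIR and 13.6, 266 and 58.0 CPM in Ctrl samples. In all 3 genes OIR replicate 2 fell within the range of the Ctrl samples, and Ifitm3 reached a log2 fold change of 2.44 with an SE of 1.26 (adjusted p = 0.7107).

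By role, the tested effectors in Microglia-like cells (Ifit2, Ifit3, Oasl2, Mx1 and Samhd1) had a median log2 fold change of 2.42 with 0 of 5 called. The 4 transcription factors had a median of 1.25 with 0 called, and the 3 immunoproteasome subunits a median of 0.56 with 0 called. Type I leaning members had a median of 1.86 over 20 tested and interferon gamma leaning members 0.81 over 8 tested. A further 12 members were below the filter, with 1 to 93 UMIs each. Among them Ifit1 had 76, 0 and 15 UMIs in OIR and 1, 1 and 0 in Ctrl samples, and Gbp2 had 50, 1 and 12 against 1, 3 and 0. In both, OIR replicate 2 was at or near the Ctrl level. The other 10 were Ifit3b, Gbp3, Ifih1, Zbp1, Rsad2, Dhx58, Oas1a, Ddx58, Iigp1 and Ifi44.

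**Figure D4:**
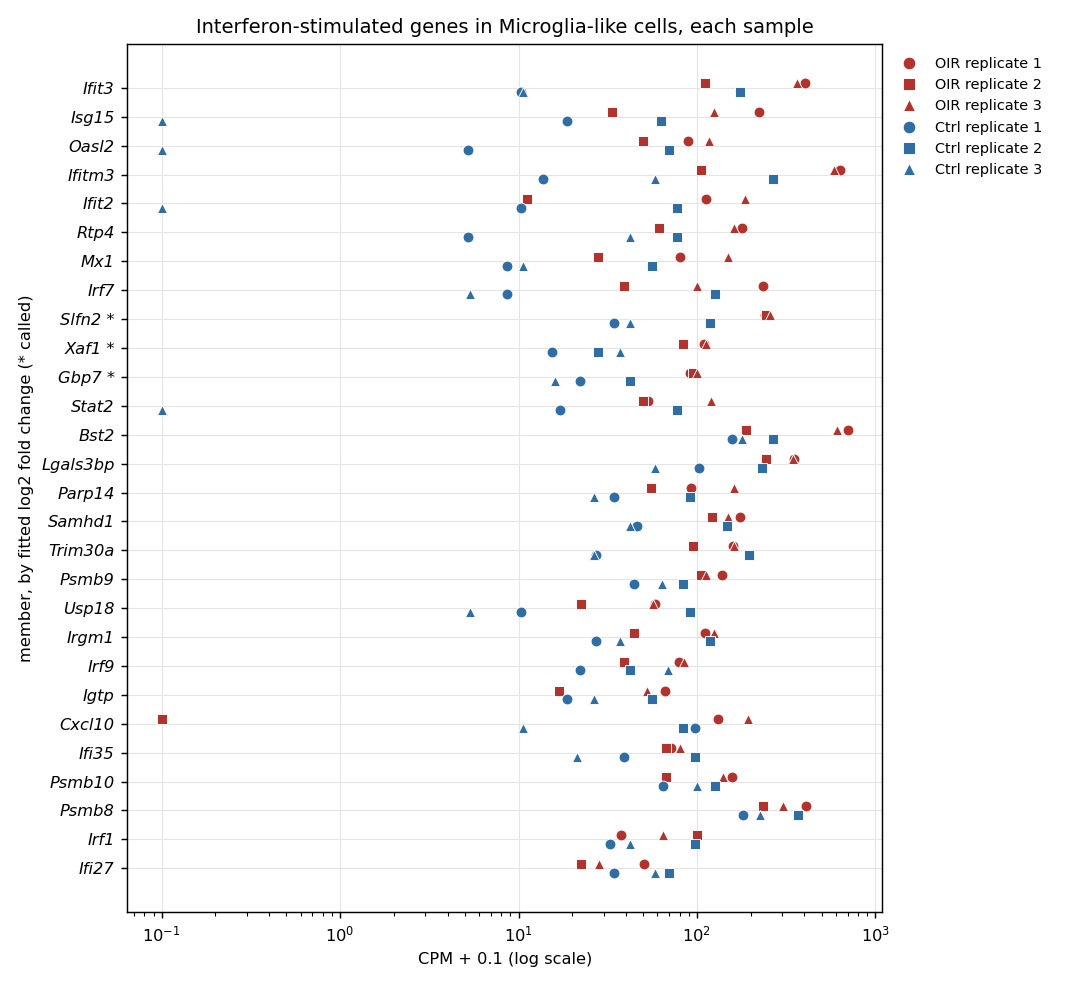
CPM (plus 0.1, log axis) of the 28 tested members in Microglia-like cells, 1 point per sample, ordered by fitted log2 fold change, with called members starred. Ctrl replicate 2 (blue squares) is the highest Ctrl point for most members, and OIR replicate 2 (red squares) the lowest OIR point for most.

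A single cell carried most of the level of Ctrl replicate 2. All members summed to 5761, 2466 and 5552 CPM in OIR and to 1143, 3630 and 1245 CPM in Ctrl samples, so that the groups overlapped. In Ctrl replicate 2, 1 of 20 cells held 273 of the 519 member UMIs (52.6%), with 31 members detected and 342 UMIs of microglia markers. Without the cell richest in member UMIs in each library, the sums were 5343, 2191 and 4660 CPM in OIR samples. In Ctrl samples they were then 1049, 1819 and 1092 CPM. The removed cells were picked by the value compared, and 1 cell weighs more among 17 or 20 cells than among 71 or 81. These sums describe the weight of single cells, and no separation of the groups is drawn from them. At 1000 UMIs per cell, at least 3 members were detected in 66.2%, 35.3% and 52.4% of OIR cells (47 of 71, 6 of 17 and 11 of 21) and in 7.41%, 20% and 17.6% of Ctrl cells (6 of 81, 4 of 20 and 6 of 34). The OIR shares were all above the Ctrl shares, but the exact binomial 95% interval of OIR replicate 2, 14.2% to 61.7%, overlapped that of Ctrl replicate 2, 5.73% to 43.7%.

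Without Ctrl replicate 2 there were 10 calls, without OIR replicate 2 there were 8, and without Ctrl replicate 1 there was 1, Slfn2, which alone was called with each library left out in turn. Over all genes those fits called 31 of 4184, 41 of 4275 and 23 of 3404. The count was 18 of 40 without the filter on low counts, where 101 of 14441 genes were called. Markers of macrophages other than microglia were higher in OIR replicates 1 and 3 (1556 and 1813 CPM, against 839 in OIR replicate 2 and 395 to 853 CPM in Ctrl samples), mostly Lyz2. Cd163 had 45.5, 0 and 56.3 CPM in OIR and 0 in every Ctrl sample. Mrc1 had 67.5, 0 and 161 CPM in OIR and 0, 28.0 and 0 CPM in Ctrl samples. Ms4a7 had 80.5, 0 and 105 CPM against 0, 126 and 0 CPM, and Plac8 had 106, 5.55 and 0 CPM against 0, 14.0 and 0 CPM. The monocyte marker Ccr2 was at 0 in every sample, as were all 6 granulocyte and all 6 lymphocyte markers. Tmem119, a marker of resting microglia, was lower in every OIR sample (311 to 505 CPM) than in every Ctrl sample (734 to 854 CPM). The part of these in the result was not tested.

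Neurons held few members above the filter. In Rod-like cells 10 of 40 were tested and 0 were called by edgeR, while 2.10% of 11673 genes were called. DESeq2 called 1, Samhd1, among 639 calls over all genes. At an unadjusted p under 0.05 there were 2 members higher and 1 lower, where 17.7% of all genes passed, and the OIR samples lay above the Ctrl samples for 2 members, which held for 22.9% of all genes. Samhd1 had 11.6, 11.9 and 12.4 CPM in OIR and 13.9, 18.6 and 19.4 CPM in Ctrl samples. The OIR samples were all lower, with a log2 fold change of -0.70 (SE 0.16, adjusted p = 0.0676, edgeR). Irf7 had 31.1, 19.9 and 17.2 CPM in OIR and 16.6, 11.4 and 12.5 CPM in Ctrl samples (log2 fold change 0.61, SE 0.26, adjusted p = 0.2682). Its groups were apart by less than 1 CPM. Libraries of equal replicate number deviated together in these cells. With the replicate number as a block both passed, Samhd1 at -0.70 (adjusted p = 0.0168, edgeR) and Irf7 at 0.56 (adjusted p = 0.0330). That fit called 1179 of 11673 genes, against 245 without the block. Stat2, also among the 3 most abundant members with 16.02 to 18.7 CPM in OIR and 14.2 to 19.1 CPM in Ctrl samples, had a log2 fold change of -0.17 (SE 0.15, adjusted p = 0.6223).

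In Cone-like cells 4 members were tested and 0 were called by edgeR or DESeq2, against 1.22% of 9450 genes. At an unadjusted p under 0.05 there was 1, Irf7, where 11.0% of all genes passed, and the OIR samples lay above the Ctrl samples for 2 members, against 11.2% of all genes. Irf7 had 49.6, 53.7 and 26.5 CPM in OIR and 19.9, 5.85 and 6.42 CPM in Ctrl samples (log2 fold change 1.60, SE 0.46, adjusted p = 0.236). The groups did not overlap, although Ctrl replicate 1 came close to OIR replicate 3. With the replicate number as a block Irf7 passed at 1.82 (adjusted p = 4.427e-05, edgeR), where 306 of 9450 genes were called. It was also called without Ctrl replicate 1 or with a term for sex, where 288 of 9623 and 112 of 9450 genes were. Samhd1 and Stat2, the other abundant members, had log2 fold changes of -0.05 (SE 0.31, adjusted p = 0.9864) and 0.05 (SE 0.27, adjusted p = 0.9815). The sum of all members was 149.9, 127 and 93.9 CPM in OIR and 90.3, 76.0 and 41.8 CPM in Ctrl samples. Without Irf7 it was 100.3, 73.5 and 67.5 CPM against 70.4, 70.2 and 35.3 CPM, and the groups overlapped.

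In Rod bipolar-like cells 6 members were tested and 1, Psmb10, was called, against 2.65% of 9332 genes. At an unadjusted p under 0.05 there were 4, all higher, where 14.5% of all genes passed, and the OIR samples lay above the Ctrl samples for 4, against 11.6% of all genes. Psmb10 had 25.6, 30.0 and 38.0 CPM in OIR and 17.4, 9.33 and 13.2 CPM in Ctrl samples (log2 fold change 1.02, SE 0.25, adjusted p = 0.0350, edgeR). The lowest OIR sample was above the highest Ctrl sample, but the call was lost without OIR replicate 2, OIR replicate 3, Ctrl replicate 2 or Ctrl replicate 3, and with a term for sex (0 called in each). With the replicate number as a block 2 were called, Irf9 beside Psmb10, where 742 of 9332 genes were. Samhd1, with 9.80 to 13.6 CPM in OIR and 10.1 to 17.1 CPM in Ctrl samples, had a log2 fold change of -0.23 (SE 0.29, adjusted p = 0.7862). Lgals3bp had 8.82, 13.3 and 17.7 CPM in OIR and 6.61, 3.11 and 6.10 CPM in Ctrl samples, with the groups apart and a log2 fold change of 1.07 (SE 0.36, adjusted p = 0.1434). All members together summed to 113.2, 113.6 and 113.4 CPM in OIR and 66.3, 56.8 and 61.0 CPM in Ctrl samples, a narrow spread on 60 to 539 UMIs per sample.

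In Cone bipolar-like cells, of 5 members tested, 0 were called by edgeR or DESeq2, against 0.882% of 9519 genes, 4 had negative values and the median log2 fold change was -0.27. No tested member passed an unadjusted p under 0.05 (0 of 5, where 10.9% of all genes passed), and the OIR samples lay above the Ctrl samples for 0 of 5, against 10.3% of all genes. Psmb10, the most abundant, had 41.1, 43.2 and 48.0 CPM in OIR and 25.8, 26.5 and 48.4 CPM in Ctrl samples, with Ctrl replicate 3 above every OIR sample (log2 fold change 0.45, SE 0.24, adjusted p = 0.5168). Samhd1 and Ifit2 had log2 fold changes of -0.27 (SE 0.25, adjusted p = 0.7628) and -0.53 (SE 0.28, adjusted p = 0.5193). Ifit3 had 6.70, 7.03 and 2.18 CPM in OIR and 9.67, 10.1 and 9.97 CPM in Ctrl samples, lower in every OIR sample without passing (log2 fold change -0.83, SE 0.40, adjusted p = 0.4575).

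Psmb10 was the member called in the largest number of cell types, 2. Its log2 fold change was positive in each of the 6 types where it was tested, from 0.45 in Cone bipolar-like and 0.56 in Microglia-like through 0.64 in Cone-like and 0.69 in Rod-like to 1.02 in Rod bipolar-like and 1.11 in Mueller-like cells. In VEC-like cells it was below the filter, with 69, 1 and 0 UMIs in OIR and 131, 3 and 7 in Ctrl samples. In Amacrine-like and RPE-like cells 0 of the 40 members passed the filter. Psmb10 had 32.2, 0 and 37.1 CPM in OIR and 42.7, 60.0 and 30.3 CPM in Ctrl samples of Amacrine-like cells, and 5 UMIs in OIR against 4 in Ctrl samples of RPE-like cells, with overlapping groups in both.

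**Figure D5:**
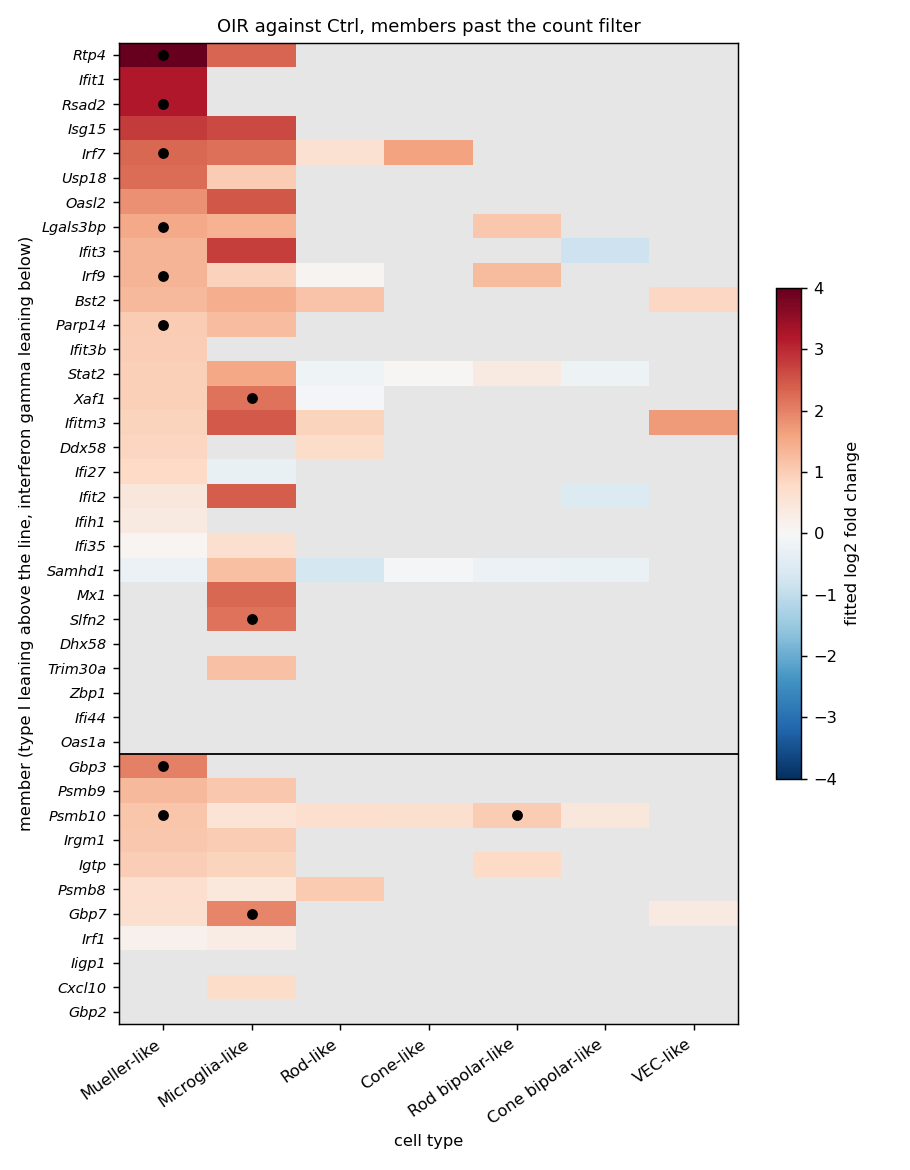
Fitted log2 fold change, OIR against Ctrl, of the members that passed the count filter in each of 7 cell types, with black dots for called members and grey where a member was not tested. Type I leaning members are above the black line and interferon gamma leaning members below it. The 8 dots of Mueller-like, 3 of Microglia-like and 1 of Rod bipolar-like cells are all on positive values, and most of the neuron columns are grey.

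VEC-like cells gave no replicated comparison. The OIR samples held 25, 2 and 2 such cells and 1847, 43 and 1 member UMIs, so that nearly all of the OIR value came from replicate 1. Of 3 members tested, 0 were called by edgeR or DESeq2, 1 (Ifitm3) passed an unadjusted p under 0.05 and 0 had OIR samples above all Ctrl samples, against 0.315%, 8.93% and 5.46% of 952 genes. Ifitm3 had 3744, 3419.8 and 292 CPM in OIR and 876, 608 and 739 CPM in Ctrl samples (log2 fold change 1.70, SE 0.66, adjusted p = 0.3972). The value of OIR replicate 3 was 1 UMI. Bst2 and Gbp7 had log2 fold changes of 0.83 (SE 0.60, adjusted p = 0.8079) and 0.35 (SE 0.63, adjusted p = 0.9891). In OIR replicate 1, whose 25 cells compare with 145 in Ctrl replicate 1, Igtp had 354 CPM against 23.1, Zbp1 116 against 4.44, and Psmb8 558 against 104, while Isg15 had 373 against 154 and Ifi27 had 63.0 against 132. VEC markers were at 8176 CPM in that OIR sample against 19074 CPM in Ctrl replicate 1, Mueller markers at 7216 against 4499 CPM, and in OIR replicate 3 VEC markers were at 1462 CPM beside rod markers at 7308 CPM. The part of other cells in these values was not tested.

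Whether the OIR effect differed between cell types was tested with Mueller-like cells as the reference. Against Cone bipolar-like cells 2 members differed, where 1.13% of 12531 genes did. The log2 fold change was lower there by 2.32 for Ifit3 (SE 0.41, adjusted p = 0.0066) and by 2.73 for Psmb9 (SE 0.60, adjusted p = 0.0214). Without OIR replicate 1 neither differed, without Ctrl replicate 1 only Ifit3 did, and without Ctrl replicate 2 there were 4 (Ifit1 and Irf7 beside these). Against Microglia-like cells 2 members differed, both with a larger effect in Microglia-like cells, where 0.525% of 10864 genes did. These were Ifit3b, which was below the filter in Microglia-like cells alone, by 3.58 (SE 0.82, adjusted p = 0.0044), and Samhd1, by 1.42 (SE 0.36, adjusted p = 0.0224). Without OIR replicate 1 or Ctrl replicate 1 neither differed, without Ctrl replicate 3 only Ifit3b did, and without Ctrl replicate 2 there were 7. For Ifit3 and Ifit3b the limit given above holds here too, since some reads may not tell them apart. Against VEC-like cells the values of 5 members passed (Rtp4, Ifit1, Rsad2, Iigp1 and Usp18), where 0.711% of 10835 genes did, but these rest on the 25 cells of OIR replicate 1 and no difference is drawn from them. The count was 0 without Ctrl replicate 1, 3 without OIR replicate 1, and 8 and 9 without Ctrl replicates 2 and 3. Against Rod-like, Rod bipolar-like and Cone-like cells 0 members differed by edgeR, where 1.26%, 1.62% and 1.12% of genes did, so that the calls in Mueller-like cells are not shown to be particular to them. At an unadjusted p under 0.05 the counts against these 3 types were 8 of 33, 1 of 30 and 4 of 30 members, where 12.3%, 12.7% and 11.0% of all genes passed. Against Cone bipolar-like, Microglia-like and VEC-like cells they were 12 of 30, 11 of 39 and 14 of 34 members, where 10.8%, 7.23% and 7.52% of all genes passed. Against Rod-like cells 3 members differed without Ctrl replicate 1 (Ifit3b, Irf1 and Rsad2), and against Cone-like cells 1 differed without Ctrl replicate 2 (Irgm1).

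The machinery upstream of the members was measured with a list of 52 genes (ligands, receptors, kinases and signal transducers, inducers and inhibitors), and 0 were called in any cell type by edgeR. In Mueller-like cells 22 were tested, with 2 at an unadjusted p under 0.05, both higher, where 15.0% of all genes passed, and a median log2 fold change of 0.13. In Microglia-like cells 17 were tested, with 3 at an unadjusted p under 0.05, 2 higher and 1 lower, where 9.52% of all genes passed. The counts at an unadjusted p were 5 of 20 in Rod-like, 2 of 14 in Cone-like, 2 of 15 in Rod bipolar-like and 1 of 14 in Cone bipolar-like cells, where 17.7%, 11.0%, 14.5% and 10.9% of all genes passed.

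Receptors were present. In Mueller-like cells Ifngr1 had 74.7 to 85.3 CPM in OIR and 79.0 to 91.1 CPM in Ctrl samples, Ifnar2 had 38.6 to 53.5 against 40.1 to 66.8 CPM, and Ifnar1 had 23.5 to 30.3 against 21.02 to 24.9 CPM. All 3 overlapped between groups. Ligands were nearly undetected, with 19 UMIs of 21 interferon genes over 38569 cells, 10 in OIR and 9 in Ctrl samples. Interferon beta (Ifnb1) had 7 UMIs, all in 1 cell of OIR replicate 2 that lay in an unnamed cluster led by Tyrobp, Cd52 and C1q genes and held 138 UMIs of microglia markers. Interferon gamma (Ifng) had 4 UMIs, in 1 cell each of Ctrl replicates 1 and 3 with 51 and 16 UMIs of lymphocyte markers. Counts this low allow no comparison between groups.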

How the data were processed

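Single-cell RNA was measured with the 10x Genomics 3' v3 chemistry in 3 OIR and 3 Ctrl samples, 1 library each. For each sample the authors deposited a matrix of UMI counts per gene and cell barcode, made with Cell Ranger, not normalized and not pooled, on build mm10 per the labels (matrix software 3.1.0 per the file headers). No cell annotation was used here.

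Cells with 500 to 5000 genes and at most 20% mitochondrial UMIs were kept. The OIR and Ctrl datasets were integrated in Seurat 5.3.0 (2000 variable genes, 15 principal components, 20 neighbours, Louvain resolution 0.5, R 4.3.3) into 23 clusters. These were named from marker lists, by a scoring rule set after the clusters were seen, and 3 stayed unnamed. Doublets were kept: Scrublet in scanpy 1.11.5 marked 165 cells in OIR replicate 1, 420 in Ctrl replicate 1 and 0 in the other 4 libraries, so its threshold did not work there, and an alternative removed the 278 to 556 highest scores in each library.

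UMIs were summed per sample and cell type, and each type whose smallest sample held 10 cells or more (and VEC-like cells in any case) was tested with edgeR 4.0.16 (quasi-likelihood, TMM, filterByExpr, limma 3.58.1), with Benjamini-Hochberg adjustment over all genes tested in that type. A call needed an adjusted p below 0.05 together with a log2 fold change of 0.25 or more in either direction. Differences between cell types were tested as an interaction with the sample as a block. Shares of cells were taken after thinning each cell to 1000 UMIs, and exact binomial intervals and floors of 3 counts cover counting error only. The step was tested on simulated data: in sums like those of Mueller-like cells, 68.5% of 200 genes changed 2-fold and 97.5% of those changed 4-fold were recovered, with 11% and 5.8% of calls false, over 11533 genes. In sums like those of Microglia-like cells (3393 genes) the recovered shares were 29% and 95%, with 9.38% and 6.86% of calls false. The changed genes were picked at random and each varied on its own, so these shares need not hold for the members.

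The 40 members, the 52 pathway genes and the marker lists were chosen with earlier results of these data known. Full statistics are given for the members called in a type, at most the 6 with the lowest p, and for the 3 of highest mean CPM. The member called in most types is given in every type. Other genes are given by counts and ranges. Some listed genes enter these counts but are not reported here by name.

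Samples of equal replicate number deviated together over all named cells (correlations of 0.67, 0.29 and 0.51 for numbers 1, 2 and 3) and in Rod-like and Cone bipolar-like sums, but not for every number in Mueller-like sums (0.23, -0.03 and 0.24) or Microglia-like sums (0.21, -0.08 and 0.03). The labels do not say what a number stands for. Alternatives were DESeq2 1.42.0, no TMM scaling, no filter on low counts, the replicate block, a term for sex, a mitochondrial limit of 10%, clusters without integration, replicates 2 and 3 alone, each library left out, and, chosen after seeing the data, each Mueller-like cluster alone and Microglia-like cells joined with an unnamed immune cluster. Promoters were read from RefSeq windows of GRCm38.p6. Values were handled in Python 3.11.15 with numpy 2.4.6, pandas 2.3.3, SciPy 1.17.1 and matplotlib 3.10.9.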

Additional observations from a re-analysis of the deposited data

Results flagged for a closer look

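The OIR effect of 4 members in Cone bipolar-like or Microglia-like cells differed from that in Mueller-like cells in an interaction test (edgeR, adjusted over all genes), and none of the 4 did without OIR replicate 1. In Cone bipolar-like cells the log2 fold change minus that in Mueller-like cells was -2.32 for Ifit3 and -2.73 for Psmb9. In Microglia-like cells it was 3.58 for Ifit3b and 1.42 for Samhd1. In VEC-like cells the values that passed were -4.60 for Rtp4, -4.27 for Ifit1, -3.95 for Rsad2, -4.47 for Iigp1 and -3.10 for Usp18, with 25, 2 and 2 OIR cells behind them, so that they come in effect from 1 OIR library.

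Some of the cells outside the comparisons also held members above the Ctrl level. In an unnamed cluster of 700 cells led by Adarb2, Cntn5 and Gabrr3, all members summed to 126, 108 and 102 CPM in OIR (mean 112) and to 78.9, 56.6 and 69.0 CPM in Ctrl samples. In an unnamed cluster of 374 cells led by Tyrobp, Cd52 and C1qb they summed to 3824, 1769 and 2132 CPM in OIR (mean 2575) and to 980.1, 813 and 1249 CPM in Ctrl samples. Both clusters were picked by the rule that every OIR sample lay above every Ctrl sample, so this order is no separate result. The other unnamed cluster, of 650 cells led by Grik1, Otor and Gsg1, did not meet the rule. Neither did the Mural-like, Astrocyte-like and Lens-like sums. The second cluster mixed cells, with lymphocyte markers at 7494 CPM in Ctrl replicate 3, granulocyte markers at 6636 CPM in OIR replicate 1 and erythroid markers at 133961 CPM in Ctrl replicate 2. Its microglia markers were higher in every OIR sample, at 15461, 18952 and 15909 CPM against 14758, 11760 and 8531 CPM. The part of these in the sums was not tested.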

How the results depend on the processing

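Counts of called members were the values that moved most. In Mueller-like cells (8) the count was 3 with replicates 2 and 3 alone, 2 with a term for sex, 4 in the shallower cluster alone, and 0 to 20 with a library left out. In Microglia-like cells (3) it was 18 without the filter on low counts, 1 with replicates 2 and 3 alone and 1 to 10 with a library left out. In Rod-like cells (0) it was 1 by DESeq2, 1 without the filter, 2 with the replicate block, 2 with replicates 2 and 3 alone and 0 to 1 with a library left out. In Cone-like cells (0) it was 1 without the filter, with the replicate block, with replicates 2 and 3 alone and with a term for sex, and 0 to 1 with a library left out. In Rod bipolar-like cells (1) it was 2 with the replicate block or replicates 2 and 3 alone, 0 with a term for sex, and 0 to 1 with a library left out. In VEC-like cells (0) it was 2 without the filter and 0 to 1 with a library left out. Beside the calls given in the report, the replicate block changed no call of a gene named with its statistics. In each case the cause was not tested.

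Counts of members whose effect differed from Mueller-like cells moved too. In Cone-like cells (0) the count was 1 without TMM scaling, 2 with a term for sex and 0 to 1 with a library left out. In Cone bipolar-like cells (2) it was 4 with a term for sex and 0 to 4 with a library left out. In Microglia-like cells (2) it was 1 without TMM scaling and 0 to 7 with a library left out. In Rod-like cells (0) it was 1 with a term for sex and 0 to 3 with a library left out. In VEC-like cells (5) it was 9 without TMM scaling and 0 to 9 with a library left out.

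The share of cells with at least 3 members detected differed between groups by 36.3 percentage points in Microglia-like cells, by 20.03 at 500 UMIs per cell and by 7.63 in unthinned cells. In Mueller-like cells it differed by 10.5 points, by 3.89 at 500 UMIs, by 18.5 for at least 2 members and by 2.19 for at least 5. The summed level in Cone bipolar-like cells was 146 CPM, and 178 CPM in clusters without integration.

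Values that changed sign were small or rested on few cells. Samhd1 in Cone-like cells (-0.05) was 0.0041 with the highest Scrublet scores removed, 0.049 with the mitochondrial limit of 10%, 0.050 with the replicate block, 0.010 without TMM scaling, 0.030 with a term for sex and -0.23 to 0.27 with a library left out. Stat2 in Cone-like cells (0.05) was -0.0068 without integration, -0.17 with the mitochondrial limit of 10%, -0.27 with replicates 2 and 3 alone and -0.16 to 0.15 with a library left out. Psmb8 in Microglia-like cells was -0.057 with replicates 2 and 3 alone, and a term for sex gave 0.14 for Stat2 in Rod-like and 0.11 for Samhd1 in Rod bipolar-like cells. In VEC-like cells, replicates 2 and 3 alone gave -1.99 for Bst2, -0.48 for Psmb8 and -0.23 for Psmb10, and leaving out a library gave -2.20 to 1.19, -0.84 to 2.09 and -0.82 to 1.64. The difference for Rsad2 between VEC-like and Mueller-like cells ran from -10.55 to 3.80 with a library left out. Of the remaining log2 fold changes of named members under these settings, 283 kept direction and side of the threshold, 29 lost and 14 gained a call, not counting fits that leave out a library.

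In Rod-like, Cone-like, Rod bipolar-like and Cone bipolar-like cells 4 to 10 members passed the filter, and in Amacrine-like cells 0 did. In simulated sums like those of Microglia-like cells, 29% of the genes changed 2-fold were recovered, and VEC-like sums held 25, 2 and 2 OIR cells.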

Other observations

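Interferon transcripts themselves were found in a handful of cells. Over 38569 kept cells, 6 of 21 interferon genes had a UMI. The 1 cell with Ifnb1 held 7 UMIs of it among 6014 UMIs, together with 52 UMIs of 11 members. It came from OIR replicate 2, the OIR library with the lowest summed level of members in Mueller-like cells. Beside Ifnb1 and Ifng, Ifna16 had 1 UMI in each group, Ifnz had 2 in each, and Ifna2 and Ifnk had 1 each in Ctrl samples.

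Mueller-like cells varied within a library. In OIR replicate 1 the median cell held 9.0 member UMIs, the richest held 306, and 60 of 937 cells held 0. In OIR replicate 2 the median was 2.0, and 131 of 514 cells held 0, at a median of 3337 UMIs per cell against 8553 in OIR replicate 1. These counts were not thinned to a common depth.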
